A study of Mus musculus with 2 samples.

Results

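Ly6c2 monocytes are mononuclear phagocytes of the aortic wall that hold transcripts of Ly6c2, which encodes a surface antigen of mouse classical monocytes. They were picked cell by cell from UMI counts (unique molecular identifiers, 1 count for each captured transcript). A cell had to hold at least 3 UMIs of Lyz2, at least 2 of Ly6c2 and at least 1 of Csf1r and Ccr2 together. It could hold at most 2 UMIs of C1qa, C1qb and C1qc together and fewer than 10 of S100a8 and S100a9 together, and none of Cd209a, Xcr1, Cd3e, Cd79a or Cdh5. This gate took 134 of 35848 cells, those that passed minimums of 500 UMIs and 200 genes and had less than 20% of their UMIs from mitochondrial genes. Of these, 105 came from the 24560 cells of the AngII+HS library and 29 from the 11288 cells of the Control library.

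The libraries were made with 10x Genomics chemistry from dissociated suprarenal abdominal aorta of male C57BL/6J mice aged 5 months. The AngII+HS mice received angiotensin II at 1500 ng/kg/min from a subcutaneous pump for 28 days, with 0.9% NaCl and 0.2% KCl in the drinking water, and the Control mice received saline. Each condition is 1 library of aortas pooled from 5 mice, according to the series design, although the extraction notes name 1 control mouse and 2 treated mice. The cell count matrices hold 86618995 UMIs in 11448 barcodes for Control and 117146856 UMIs in 24804 barcodes for AngII+HS. Each library's recorded list of barcodes is as long as the matrix of the other library, and 67 barcodes stand in both lists. Libraries were therefore identified by the matrix alone, and a swap of the matrices themselves would turn every difference between the conditions around.

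Classical monocytes leave the bone marrow by way of CCR2, circulate for a short time and enter inflamed tissue, where they can become macrophages or antigen-presenting cells. In the mouse they carry high LY6C, whereas nonclassical monocytes patrol the vessel lumen with low LY6C and high CX3CR1. In angiotensin II models of aortic disease, recruited monocytes are a known source of inflammatory macrophages in the wall. C1q macrophages, with abundant complement C1q transcripts, are the mature macrophages set beside the monocytes here. They were taken as cells with at least 3 Lyz2 UMIs, at least 5 C1q UMIs, at most 1 Ly6c2 UMI and no UMI of Lyve1, Folr2 or Cd163, with the other exclusions of the monocyte gate.

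Ly6c2 defines the cells, and Plac8 and Chil3 had the highest ratios to C1q macrophages among the genes ranked outside the gates. The genes ranked had at least 200 UMIs and were found in at least 10% of either population. The bases before the start of Ly6c2, Plac8 and Chil3 are shown so that the named genes can be placed in the genome. Each run is the 150 bases upstream of the most upstream RefSeq start in GRCm38.p6, written 5′ to 3′ on the minus strand, and capitals mark GGAAGT or its reverse complement ACTTCC, a core bound by ETS factors such as PU.1. The windows are chr15:75111972-75112121 for Ly6c2, chr5:100572206-100572355 for Plac8 and chr3:106167565-106167714 for Chil3.
Ly6c2: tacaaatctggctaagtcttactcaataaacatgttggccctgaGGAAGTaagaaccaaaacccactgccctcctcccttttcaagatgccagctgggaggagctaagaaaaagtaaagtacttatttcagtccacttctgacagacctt
Plac8: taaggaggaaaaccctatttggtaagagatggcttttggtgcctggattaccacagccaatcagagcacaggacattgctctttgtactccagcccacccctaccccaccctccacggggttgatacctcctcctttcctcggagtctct
Chil3: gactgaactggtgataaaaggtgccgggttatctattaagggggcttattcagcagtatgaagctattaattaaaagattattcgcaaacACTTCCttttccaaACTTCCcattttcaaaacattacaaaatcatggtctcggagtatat
The letters lie at -106 to -101 from the start in Ly6c2, and at -60 to -55 and -46 to -41 on the opposite strand in Chil3. The Plac8 window holds no match on either strand. Of the 32851 promoter windows of this length, 13.6% hold GGAAGT on either strand, and 5.46% hold TTGCNNAA, a C/EBP pattern that is in none of these 3. The motifs were chosen after the sequences had been seen, and a match is a string of letters rather than a bound site. In the newer assembly GRCm39, whose coordinates are not interchangeable with those above, the GENCODE gene models span chr15:74980003-74988467 for Ly6c2, chr5:100701591-100720111 for Plac8 and chr3:106054870-106074880 for Chil3, all on the minus strand.

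Values of the gate genes are a description of the choice. In AngII+HS monocytes, Ly6c2 had a median of 5 UMIs per cell with a range of 2 to 51, and 21 of the 105 cells held exactly 2. Lyz2, which encodes lysozyme, had a median of 20 UMIs per cell with a range of 3 to 96. In Control monocytes the Ly6c2 median was also 5, with a range of 2 to 13, whereas the Lyz2 median was 79 with a range of 36 to 116. Ccr2, the receptor for CCL2, was detected in 85 of 105 AngII+HS monocytes and in 28 of 29 Control monocytes. C1q transcripts were at 0 in 74 AngII+HS and 27 Control monocytes. Ly6c2 and its neighbour Ly6c1 are closely similar genes, so reads of one can be lost or assigned to the other. Ly6c1 was at 21.5 CPM (the UMIs of a gene scaled to a common total of 1e+06 UMIs per population) in AngII+HS monocytes, where Ly6c2 was at 1661 CPM.

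The label was checked against a list of 10 classical monocyte genes that are not in the gate (among them Plac8, Chil3, Ms4a4c, Ifitm6, F13a1, Vcan, Hp, Gsr and S100a4). All 10 had UMIs in the monocytes of both libraries, and their sum was 7345 CPM in AngII+HS and 7972 CPM in Control monocytes, against 1140 CPM in AngII+HS C1q macrophages. The 9 nonclassical genes summed to 542 CPM in AngII+HS and 767 CPM in Control monocytes, of which Nr4a1, also an early response gene, made 322 and 480 CPM. Among them Cd300e and Eno3 were at 0 in both libraries, and 2 of the 6 with enough UMIs were at least 2-fold higher than in C1q macrophages (median log2 ratio 0.14). Of 10 neutrophil genes, Ly6g, Ngp and Camp were at 0 in both libraries, and the list summed to 219 CPM in AngII+HS and 457 CPM in Control monocytes, against 11913 CPM in AngII+HS neutrophils. The B cell genes Cd79b and Ms4a1 were at 0 in both libraries. Markers of T and NK cells summed to 52.7 CPM in AngII+HS monocytes and were at 0 in Control monocytes, against 1531 CPM in AngII+HS T cells.

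Structural cell transcripts were present and moved with the condition. The 5 fibroblast genes (Col1a1, Col1a2, Col3a1, Dcn and Lum) summed to 4693 CPM in AngII+HS and 832 CPM in Control monocytes, and to 9500 CPM and 872 CPM in T cells of the same libraries. The 4 smooth muscle genes (Myh11, Tagln, Acta2 and Cnn1) summed to 1233 CPM in AngII+HS and 4050 CPM in Control monocytes, and to 1831 CPM and 7061 CPM in T cells. T cells thus held more of the smooth muscle transcripts than monocytes did in both libraries, and more of the fibroblast transcripts in AngII+HS. In Control the fibroblast sums of T cells and monocytes were close, from 618 and 255 UMIs. Of the 105 AngII+HS monocytes, 9 also met a gate for fibroblasts, smooth muscle cells or T cells, and of the 29 Control monocytes 4 did. With those 9 cells left out, the median log2 ratio of the fibroblast list to C1q macrophages was -3.13 rather than -0.29. This is partly by construction, because the fibroblast gate counts the same genes. Cells were also left out on the monocyte side only. C1q macrophages cannot meet these gates, which allow at most 2 C1q UMIs, so the 2 sides of that ratio were not filtered alike. The smooth muscle difference between the conditions rested on few cells. Its median log2 ratio of AngII+HS over Control was -2.15, with 4 of 4 genes lower, and 0.46 over the 2 genes with enough UMIs once the 9 and 4 cells were left out, with neither past 2-fold. A single AngII+HS monocyte held 231 of the 312 Tagln UMIs. For the fibroblast list that median was 2.45, with 5 of 5 genes higher, and 2.81 over 3 genes without those cells.

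**Figure D1:**
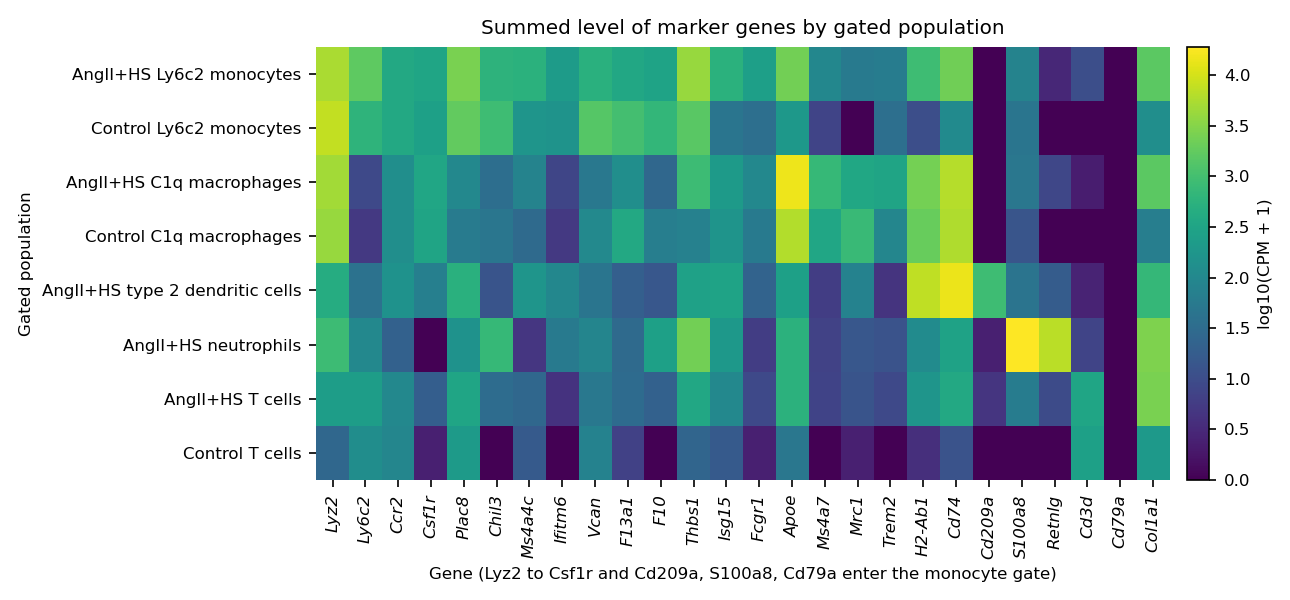
Summed level of 26 genes (columns) in gated populations (rows), as log10 of CPM + 1, from dark (0) to yellow. The 2 monocyte rows are bright at Plac8, Chil3, Vcan and F10, and Plac8 is 2580 CPM in AngII+HS monocytes against 99.2 CPM in C1q macrophages.

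Monocytes were 0.428% of AngII+HS cells (95% exact binomial interval 0.350 to 0.517%) and 0.257% of Control cells (0.172 to 0.369%). Over the same denominators, C1q macrophages were 6.37% of AngII+HS cells and 0.443% of Control cells. Counted against both populations together, monocytes made up less in AngII+HS, at 6.29% (105 of 1670 cells, 5.17 to 7.56%), than in Control, at 36.7% (29 of 79 cells, 26.1 to 48.3%). Intervals cover counting error only, and with 1 library per condition there is no test of any difference between conditions.

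Depth bears on these shares, because the gate asks for whole UMIs. Control monocytes had a median of 8214 UMIs, 2808 genes and 2.35% mitochondrial UMIs per cell, and AngII+HS monocytes a median of 3933 UMIs, 1762 genes and 0.889%. When every cell was first thinned to 1000 UMIs, the gate took 2 Control cells (0.0189%) and 24 AngII+HS cells (0.106%). A gate of at least 1 Ly6c2 UMI took 33 Control cells (0.292%) and 166 AngII+HS cells (0.676%). As a share of all cells, AngII+HS monocytes were above Control monocytes at each of these settings.

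By UMI count alone, not scaled to transcript length, the most abundant genes of AngII+HS monocytes outside mitochondrial and ribosomal protein genes were Fth1, Tmsb4x, Malat1, Tpt1, Actb, Cxcl2, Lyz2, Ftl1, H3f3b and Thbs1. Fth1, ferritin heavy chain, was at 19902 CPM and Thbs1 at 4215 CPM.

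The main question was how the transcripts of AngII+HS monocytes differ from those of C1q macrophages of the same library. UMIs were summed over the cells, 512449 in monocytes and 8463516 in C1q macrophages, and 9641 genes outside the gates with at least 50 UMIs over both were compared. A gene was called at a 2-fold difference. Of these genes, 547 (5.67%) were higher and 1126 (11.7%) were lower in monocytes, and 448 and 633 of them also had a 95% counting interval clear of 0. The median log2 ratio over all genes was 0.032. TMM scaling moved that median to -0.088 and the calls to 396 higher and 1288 lower. In the monocyte sum, 3 UMIs equal 5.85 CPM, which is the level that a count of 0 allows.

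The 12 highest ratios, among genes with at least 200 UMIs and found in at least 10% of either population, were led by Plac8, Chil3, F10 and Vcan. Plac8, a small cysteine-rich protein of myeloid cells, was at 2580 CPM in monocytes and 99.2 CPM in C1q macrophages (log2 ratio 4.70, 95% counting interval 4.57 to 4.83). Chil3, a chitinase-like lectin also called Ym1, was at 576 and 34.7 CPM (4.05, 3.81 to 4.29). F10, coagulation factor X, was at 299 and 25.5 CPM (3.55, 3.24 to 3.85). Vcan, which encodes the proteoglycan versican, was at 529 and 50.1 CPM (3.40, 3.17 to 3.62). With a gate of at least 3 Ly6c2 UMIs the log2 ratios of F10 and Vcan were 3.09 and 2.92, and with free RNA subtracted that of Vcan was 8.32, so the direction held while the size depended on these choices.

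The other 8 of the 12 were Plcb1, Ifitm1, Ms4a4c, Slpi, Ly6i, B3gnt5, Met and Trem1, with log2 ratios between 2.33 and 3.17. Ms4a4c, a membrane-spanning 4A protein of monocytes, was detected in 79.0% of monocytes and 22.0% of C1q macrophages. Slpi, a secreted inhibitor of neutrophil elastase, was at 564 and 85.8 CPM. Trem1, an amplifying receptor of myeloid cells, was at 105 and 21.1 CPM. Met, the receptor for hepatocyte growth factor, was at 164 and 32.3 CPM. The values of these genes were spread over many cells, and the cell with the most UMIs held 3.40% of the Plac8, 5.71% of the Ms4a4c and 23.7% of the Ly6i UMIs.

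At the other end, 4 genes were at 0 UMIs in the monocytes. Fcrls, an Fc receptor-like scavenger gene of tissue macrophages, was at 105 CPM in C1q macrophages and at least 17.98-fold lower in monocytes, taking 3 UMIs as the limit. Slc40a1, the iron exporter ferroportin, was at 48.4 CPM and at least 8.27-fold lower. Rapgef5 and Lilra5 were at least 5.87-fold and 4.14-fold lower. The other 8 of the 12 lowest ratios were those of Hpgds, Mmp12, Gdf15, Cadm1, Ccl8, Lpl, Blnk and Gatm, with log2 ratios between -5.54 and -3.46.

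Of these, Gdf15, a stress-induced cytokine of the TGF-beta family, was at 50.7 CPM in monocytes and 863 CPM in C1q macrophages (log2 ratio -4.06, -4.70 to -3.54), and 1 monocyte held 15 of its 26 UMIs. Mmp12, macrophage elastase, had 3 UMIs in monocytes (5.85 CPM) and was at 185 CPM in C1q macrophages. Lpl, lipoprotein lipase, was at 11.7 and 169 CPM. Blnk, a signalling adaptor, was detected in 8.57% of monocytes and 57.7% of C1q macrophages. The value of Lpl rests on 6 monocyte UMIs, and its log2 ratio of -3.74 was -1.93 when each cell was thinned to 1000 UMIs.

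**Figure D2:**
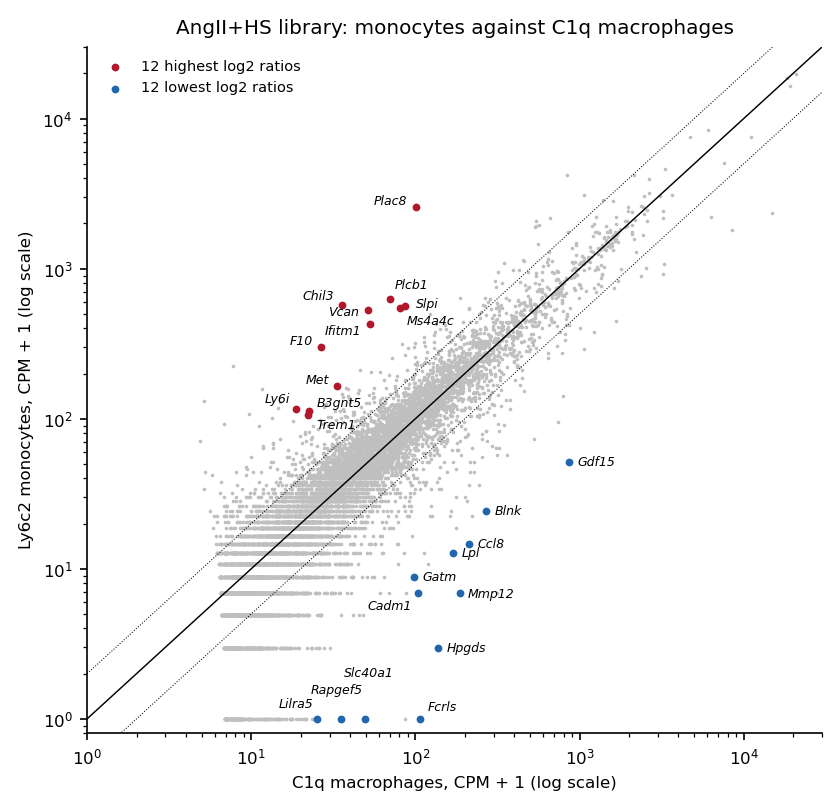
Each point is 1 of the 9641 genes compared in the AngII+HS library, with its level in C1q macrophages (x axis) and in Ly6c2 monocytes (y axis) as CPM + 1 on log scales. The solid line marks equal levels, the dotted lines a 2-fold difference, and the 12 highest (red) and 12 lowest (blue) log2 ratios among genes with at least 200 UMIs and found in at least 10% of either population are named, from Plac8 at 4.70 to Fcrls at 0 UMIs in monocytes.

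All 10 classical monocyte genes were higher in monocytes by at least 2-fold, with a median log2 ratio of 3.09 against 0.032 over all genes. Ifitm6 had the highest ratio, at 222 CPM in monocytes and 6.73 CPM in C1q macrophages (5.04, 4.57 to 5.53). The lowest ratio of the list was that of Hp, haptoglobin, at 230 and 98.4 CPM (1.23, 0.94 to 1.51).

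Of 12 macrophage genes, 8 were lower, 1 was higher and the median log2 ratio was -1.74. Apoe, apolipoprotein E, was at 2353 CPM in monocytes and 14839 CPM in C1q macrophages (-2.66, -2.74 to -2.57). Mrc1, the mannose receptor CD206, was at 56.6 and 360 CPM (-2.64, -3.25 to -2.14), and 1 monocyte held 16 of its 29 UMIs. The gene that was higher was Fcgr1, the high-affinity IgG receptor CD64, at 258 and 97.9 CPM (1.40, 1.12 to 1.66).

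Among 13 genes of chemokine receptors and adhesion, 5 were higher and none was lower (median 0.77). These included Itgb7 at 99.5 and 12.4 CPM (log2 ratio 3.01), Itgal, the alpha chain of LFA-1, at 72.2 and 13.9 CPM (2.39, 1.80 to 2.92), Ccr1 at 181 and 75.5 CPM and Itgam, the alpha chain of MAC-1, at 443 and 194 CPM. Cx3cr1, the fractalkine receptor, was at 93.7 CPM in monocytes and 183 CPM in C1q macrophages (-0.95, -1.41 to -0.55), short of 2-fold. Cd44, a receptor for hyaluronan, was the most abundant of the list by UMI count, at 1661 and 1200 CPM.

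Chemokine genes divided, with 5 of 17 higher and 5 lower (median -0.64). Ccl6 was at 1118 CPM in monocytes and 458 CPM in C1q macrophages, Ccl9 at 759 and 309 CPM, and Cxcl3 at 418 and 150 CPM. Ccl4, a macrophage inflammatory protein, was at 1813 and 8474 CPM (-2.22, -2.32 to -2.13), Ccl3 at 447 and 1660 CPM (-1.89, -2.09 to -1.71) and Ccl8 at 13.7 and 212 CPM. Ccl2, the ligand of CCR2, differed little, at 1624 and 1585 CPM (0.035, -0.068 to 0.14). Cxcl2, a neutrophil attractant, was at 7515 and 11138 CPM. Ccl22, at 41.0 and 8.27 CPM, rested on 2 monocytes, 1 of which held 90.5% of its UMIs, and its log2 ratio of 2.33 turned to -0.49 with the monocytes that also met another gate left out (Ccl17, with 11 UMIs, was likewise found in 2 monocytes).

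Cytokine genes were closer, with 0 of 11 higher and 1 lower by 2-fold (median 0.39). Over all genes compared, 5.67% were higher and 11.7% were lower. Il1b, interleukin-1 beta, was at 4201 CPM in monocytes and 2134 CPM in C1q macrophages (0.98, 0.91 to 1.04), just short of 2-fold. Il10, an anti-inflammatory cytokine, was the gene that was lower, at 166 and 434 CPM (-1.38, -1.72 to -1.08). Tnf was at 418 and 827 CPM (-0.98, -1.19 to -0.79).

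Of 14 interferon-stimulated genes, 9 were higher and 1 was lower, with a median log2 ratio of 1.27. Irf7, a transcription factor of the interferon response, was at 254 and 70.8 CPM (1.85, 1.56 to 2.12). Isg15, a ubiquitin-like modifier, was at 548 and 211 CPM (1.38, 1.19 to 1.56), and Mx1, an antiviral GTPase, at 66.3 and 12.5 CPM (2.42, 1.80 to 2.97). Ifih1, the RNA sensor MDA5, was lower, at 89.8 and 344 CPM (-1.92, -2.39 to -1.52). Summed over the gate, most of the list thus stood on the monocyte side, with the RNA sensor as the exception past 2-fold. Isg15 was uneven within the gate. It was at 57.2 CPM in the 21 monocytes with 2 Ly6c2 UMIs, below its level in C1q macrophages. With 3 or 4 Ly6c2 UMIs it was at 380 CPM, and with at least 5 at 837 CPM. Cells with Ly6c2 and at least 5 C1q UMIs held 730 CPM of Isg15, against 443 CPM in monocytes without C1q.

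Antigen presentation stood on the macrophage side. Of 7 genes of MHC class II presentation, 0 were higher and 5 were lower (median -1.51). H2-Aa was at 1073 CPM in monocytes and 3288 CPM in C1q macrophages (-1.61, -1.74 to -1.49), and Cd74, the invariant chain, was at 2211 and 6291 CPM (-1.51, -1.59 to -1.42). Ciita, the coactivator of these genes, had 3.90 CPM (2 UMIs) and 18.3 CPM. The monocytes still held several times the level of T cells of the same library, where H2-Aa was at 228 CPM and Cd74 at 386 CPM.

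Most genes of lipid handling and engulfment were lower as well. Of 14 lipid-associated macrophage genes, 0 were higher and 9 were lower (median -1.60), among them Trem2, a lipid receptor, at 62.4 and 320 CPM, Cd36, a fatty acid and scavenger receptor, at 17.6 and 176 CPM, and Lipa, lysosomal acid lipase, at 35.1 and 210 CPM. Lgals3, galectin-3, and Plin2, a lipid droplet coat protein, were not lower, at 1916 and 1439 CPM and at 730 and 565 CPM. Of 12 efferocytosis and scavenger receptor genes, 8 were lower and 2 were higher (median -1.35). The higher ones were Msr1, scavenger receptor A, at 238 and 101 CPM (1.24, 0.95 to 1.51), and Havcr2, which encodes TIM-3, at 195 and 68.3 CPM (1.52, 1.19 to 1.82). Of 17 lysosomal genes 4 were lower, including Ctsb at 1007 and 2547 CPM, and none was higher.

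Of 9 genes of coagulation and fibrinolysis, 4 were higher and 1 was lower in monocytes (median 0.91). Thbs1, thrombospondin-1, was at 4215 CPM in monocytes and 844 CPM in C1q macrophages (2.32, 2.25 to 2.39). F13a1, the A subunit of factor XIII, was at 361 and 129 CPM (1.49, 1.25 to 1.71), and F10 is given above. Plau, urokinase, was the gene that was lower, at 37.1 and 111 CPM, whereas its receptor gene Plaur was at 439 and 235 CPM. F3, tissue factor, was at 41.0 and 32.3 CPM, with 11 of its 21 monocyte UMIs in 1 cell.

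Glycolysis and hypoxia genes had 5 of 14 higher and none lower (median 0.85), with Hif1a, the oxygen-regulated transcription factor, at 806 and 336 CPM (1.26, 1.11 to 1.41) and Pkm, pyruvate kinase, at 603 and 277 CPM. In pattern recognition, 3 of 13 genes were higher and 1 was lower, and Clec4e, the receptor Mincle, was at 954 and 317 CPM (1.59, 1.45 to 1.73). Csf2rb, the common beta chain of the GM-CSF receptor, was the 1 higher gene among 13 cytokine receptors, at 429 and 133 CPM (1.69, 1.48 to 1.90). Tgfbr1 and Tgfbr2 were the 2 lower ones, at 123 and 299 CPM and at 64.4 and 148 CPM. For the cytokine receptors these counts are near the shares over all genes, 5.67% higher and 11.7% lower. NADPH oxidase genes had 0 of 6 past 2-fold in either direction, with Cybb at 964 and 727 CPM.

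Among 10 matrix protease and inhibitor genes 2 were higher and 3 lower, and Timp1, an inhibitor of metalloproteinases, was at 82.0 and 322 CPM (-1.96, -2.45 to -1.54), a ratio that turned to 4.05 with free RNA subtracted. Of 8 complement genes, 1 was higher and 2 were lower. Over all genes compared, 5.67% were higher and 11.7% were lower, so the counts of these 2 short lists are not read as a result. Fc receptors had 1 of 5 higher, Fcgr1, and Fcer1g, the common gamma chain, was at 2625 and 2361 CPM. Of 10 immediate early genes 3 were lower and none was higher.

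Among 20 transcription factors, 1 was higher and 3 were lower, near the shares of 5.67% and 11.7% over all genes, and the median was -0.17. Hif1a was the higher one, and Atf3, Cebpa and Pparg were the lower ones, Pparg at 25.4 and 90.6 CPM. Cebpb and Spi1, which encodes PU.1, were at 3938 and 2658 CPM and at 527 and 460 CPM. Of the angiotensin and corticosteroid genes with enough UMIs, 0 of 6 passed 2-fold, and the angiotensin receptors Agtr1a, Agtr1b and Agtr2 had 1, 0 and 0 UMIs in the monocytes, under the limit of 3 UMIs. Of 8 cell cycle genes, 3 were lower, and Mki67, a proliferation marker, was at 31.2 and 49.0 CPM (-0.61, -1.47 to 0.07), with 8 of its 16 monocyte UMIs in 1 cell.

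Leading genes also differed between the populations in the Control library, although from few cells. Over 29 Control monocytes and 50 Control C1q macrophages, Plac8 had 539 and 14 UMIs, Vcan 437 and 24, Chil3 270 and 11, F10 209 and 16, and Thbs1 476 and 18. Apoe had 58 and 1464 UMIs and H2-Aa 1 and 802. Mrc1 had 0 UMIs in Control monocytes and 190 in Control C1q macrophages, at least 81.7-fold lower per UMI sequenced.

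**Figure D3:**
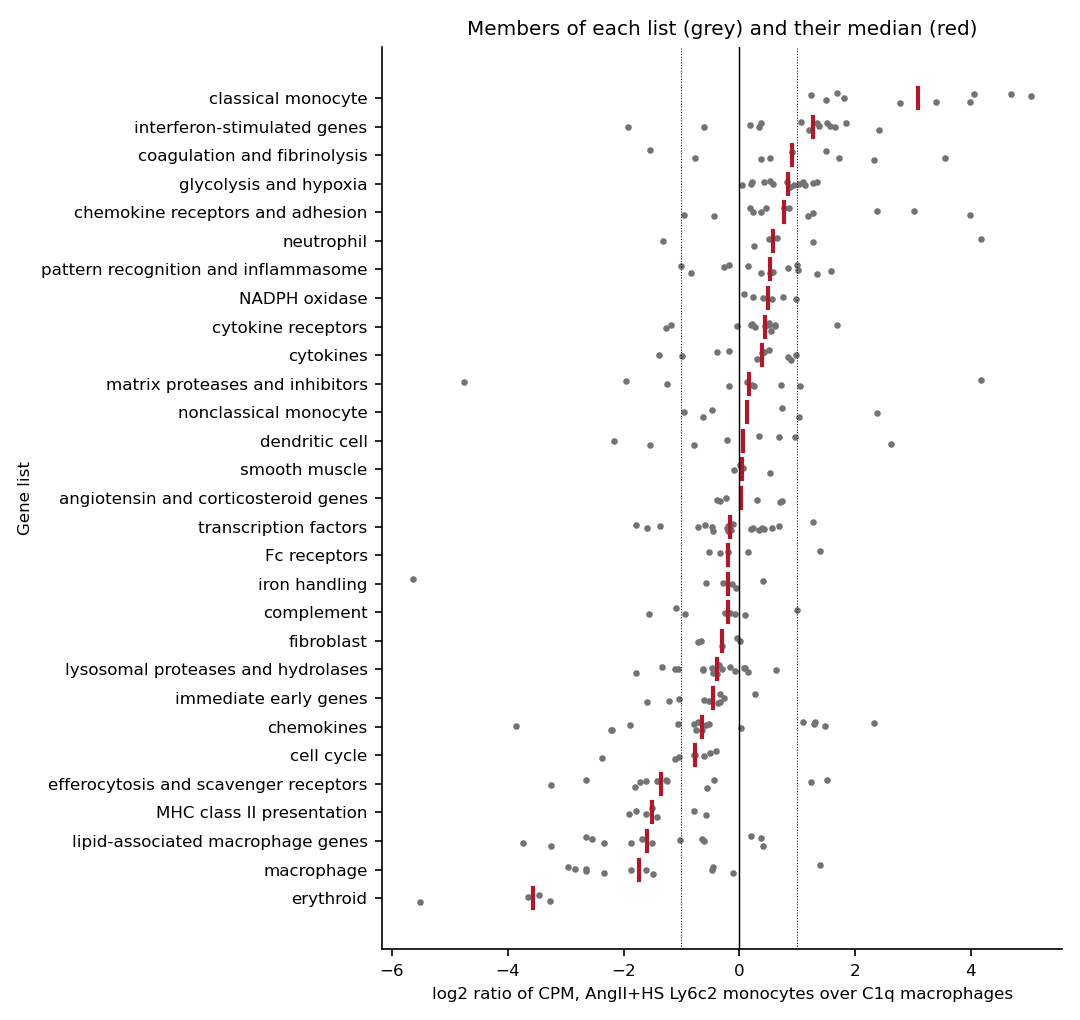
Log2 ratio of CPM in AngII+HS Ly6c2 monocytes over C1q macrophages (x axis) for the members with at least 50 UMIs of each gene list that has at least 4 of them (y axis), with the median of the list as a red bar and dotted lines at a 2-fold difference. The classical monocyte list stands apart at a median of 3.09, interferon-stimulated genes are next among the lists drawn at 1.27, the macrophage, lipid-associated and MHC class II lists lie between -1.74 and -1.51, and the erythroid list is lowest at -3.56.

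The monocytes varied among themselves. Plac8 was detected in 90.5% of AngII+HS monocytes (95% exact interval 83.2 to 95.3%), Chil3 in 45.7%, Vcan in 51.4%, H2-Ab1 in 42.9% and Fcgr1 in 58.1%. In T cells, which should lack most of these genes, the shares were 34.0%, 3.80%, 7.25%, 12.1% and 1.78% at a median of 2651 UMIs, although lymphocytes can express Plac8. After thinning to 1000 UMIs per cell, with 1 of 105 monocytes and 13 of 841 T cells left out, the monocyte shares were 76.9%, 27.9%, 34.6%, 28.8% and 29.8%, and the T cell shares 19.1%, 1.57%, 2.17%, 5.80% and 0.362%. Each monocyte share was thus above that of T cells at equal depth.

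Chil3 and H2-Ab1 were in partly different cells. Of the 105 AngII+HS monocytes, 13 held UMIs of both, 35 of Chil3 alone, 32 of H2-Ab1 alone and 25 of neither. Cells with Chil3 had a median of 3734 UMIs and cells without it 4190 UMIs. Chil3 and Vcan were found together in 33 cells, and Isg15 and Chil3 together in 25 cells. These counts describe detection in sparse data, and no cell group was defined from them.

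The cells just inside and just outside the thresholds differed by degrees. Of the AngII+HS cells that met every other term, 61 held 1 Ly6c2 UMI and 353 held none. Plac8 was at 2153 CPM in the cells with 1 Ly6c2 UMI and at 1830 CPM in the 21 cells with 2, and Chil3 was at 1024 and 1096 CPM in these. In the 56 cells with at least 5 Ly6c2 UMIs, Plac8 was at 2736 CPM, Chil3 at 327 CPM, Ms4a4c at 750 CPM and Isg15 at 837 CPM. In the cells without Ly6c2, Plac8 was at 627 CPM and Cd74 at 3525 CPM. Within the gate, Chil3 and Vcan were thus highest at 2 Ly6c2 UMIs, and Ms4a4c and Isg15 at 5 or more.

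Along the C1q threshold, 7 cells held 3 or 4 C1q UMIs and 73 held at least 5 while meeting the other terms. In those 73 cells, which carry Ly6c2 and C1q together, Plac8 was at 1160 CPM, Apoe at 6407 CPM and Ms4a7 at 514 CPM, against 2591, 2427 and 109 CPM in the 74 monocytes without C1q. Col1a1 was at 4558 CPM in the 10 monocytes with 2 C1q UMIs, where 1 cell held 292 of its 295 UMIs, and at 53.9 CPM in the rest of these cells.

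**Figure D4:**
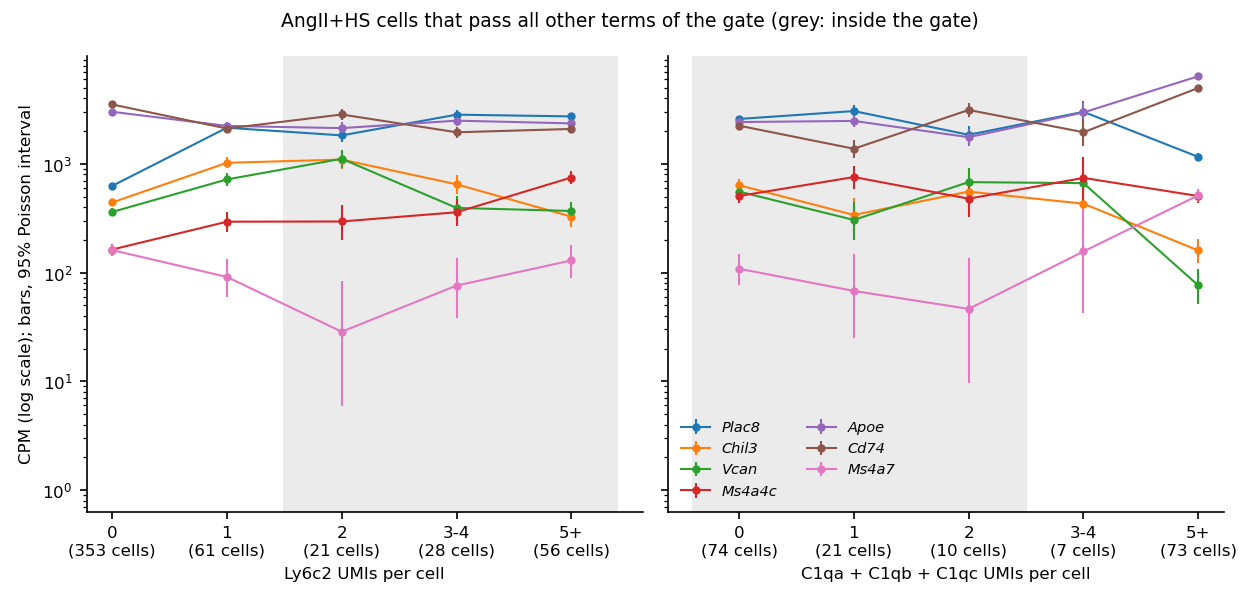
Level in CPM (y axis, log scale) of 7 genes in AngII+HS cells that meet every other term of the gate, by Ly6c2 UMIs per cell (left) and by C1q UMIs per cell (right), with the number of cells under each bin. Bars are 95% Poisson intervals and the grey area is inside the gate, where Chil3 falls from 1096 CPM at 2 Ly6c2 UMIs to 327 CPM at 5 or more.

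The second question was how monocytes differed between the conditions. The sums were 512449 UMIs over 105 AngII+HS cells and 306447 UMIs over 29 Control cells, and 3019 genes with at least 50 UMIs were compared. Of these, 266 (8.81%) were at least 2-fold higher and 233 (7.72%) at least 2-fold lower in AngII+HS monocytes. The median log2 ratio over all genes was -0.028. TMM scaling moved it to 0.17 and the calls to 366 higher and 151 lower, so a ratio here is relative to a reference that shifts with the scaling. Pool, depth and treatment cannot be told apart with 1 library per condition.

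Of 6 MHC class II genes, 5 were higher and none was lower (median 4.87), and 4 of 5 were higher with the monocytes that also met another gate left out. H2-Aa was at 1073 CPM in AngII+HS and 3.26 CPM (1 UMI) in Control monocytes, H2-Ab1 at 890 and 9.79 CPM, and H2-Eb1 at 927 and 19.6 CPM. Cd74 was at 2211 and 111 CPM (4.30, 3.83 to 4.85). Control monocytes thus held few of these transcripts, and H2-Ab1 was detected in 3.45% of them against 42.9% of AngII+HS monocytes. In T cells, H2-Aa was at 228 CPM in AngII+HS and 12.7 CPM in Control, so the background of these transcripts also moved with the condition, and its part in the difference was not tested. In C1q macrophages the log2 ratios of AngII+HS over Control were -0.039 for H2-Aa, 0.30 for H2-Ab1, 0.088 for Cd74 and -0.33 for H2-Eb1 (-0.43 to -0.24), all short of 2-fold.

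Of 8 interferon-stimulated genes, 7 were higher and none was lower (median 3.29). The remaining one, Ifih1, went the other way, at 89.8 and 179 CPM (-0.997, -1.60 to -0.41), just short of 2-fold, and was at -1.40 with the monocytes that also met another gate left out. Irf7 was at 254 CPM in AngII+HS and 6.53 CPM (2 UMIs) in Control monocytes, so that its ratio is loosely fixed (4.96, 3.40 to 8.34). Isg15 was at 548 and 45.7 CPM (3.54, 2.81 to 4.48) and Bst2, tetherin, at 441 and 39.2 CPM. In T cells these transcripts moved the same way at lower levels, with Isg15 at 99.1 CPM in AngII+HS and 15.5 CPM in Control and Irf7 at 24.9 and 7.06 CPM, and the part of background in the difference was not tested. Ly6a, which encodes the interferon-inducible antigen Sca-1, was at 498 and 16.3 CPM (4.80, 3.69 to 6.57), and Ifitm1, an interferon-induced membrane protein, at 425 and 19.6 CPM (4.33, 3.30 to 5.90). All 5 Ly6a UMIs of Control monocytes were in 1 cell, and the log2 ratio was 7.55 with monocytes that also met another gate left out. Among genes with at least 200 UMIs and found in at least 10% of either population, AA467197 had the highest ratio. It was at 640 CPM in AngII+HS and 0 UMIs in Control monocytes, at least 65.4-fold higher.

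Of 12 chemokine genes, 11 were higher and none was lower (median 1.62). Ccl7, a second ligand of CCR2, was at 825 and 55.5 CPM, with 12 of the 17 Control UMIs in 1 cell, and Ccl2 at 1624 and 206 CPM (2.97, 2.61 to 3.37). In T cells of the same libraries, Ccl2 was at 614 CPM in AngII+HS and 22.6 CPM in Control, and the part of this background was not tested. Fcgr1 was at 258 and 35.9 CPM (2.78, 1.96 to 3.88), Fcgr4, with 47 UMIs in all and so below the minimum for a call, at 89.8 and 3.26 CPM, and Vegfa, vascular endothelial growth factor, at 291 and 16.3 CPM (4.02, 2.90 to 5.80). Apoe was at 2353 and 189 CPM (3.62, 3.26 to 4.04), and 7 of 10 lipid-associated genes were higher. In T cells Apoe was at 554 CPM in AngII+HS and 49.4 CPM in Control, and the part of this background was not tested. A single Control monocyte held 44.8% of the 58 Control Apoe UMIs. By the 2-fold call, most MHC class II and most lipid-associated genes with enough UMIs thus stood higher in AngII+HS than in Control monocytes. Most of each list also stood lower in AngII+HS monocytes than in C1q macrophages of the same library.

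Genes of the classical monocyte list divided, with 1 of 10 higher, 3 lower and a median of -0.77. Ms4a4c was the higher one, at 546 CPM in AngII+HS and 166 CPM in Control. Vcan, at 529 and 1426 CPM (-1.43, -1.66 to -1.21), and F13a1, at 361 and 982 CPM (-1.44, -1.72 to -1.18), were among the lower ones. Chil3 was at 576 and 881 CPM and was detected in 45.7% of AngII+HS and 89.7% of Control monocytes, or 27.9% and 51.7% after thinning. F10 was at 299 and 682 CPM. Of 5 coagulation genes (median -1.19, or 0.15 with a minimum of 20 UMIs), 3 were lower and 1, Thbs1, was higher, at 4215 and 1553 CPM (1.44, 1.30 to 1.59).

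The genes ranked had at least 200 UMIs and were found in at least 10% of either population. Among them, the lowest ratios were those of Dmd, Atf3, Gpr141, Egr1, mt-Nd3 and Acta2, with log2 ratios between -2.51 and -1.98. Gpr141, an orphan receptor of myeloid cells, was at 107 CPM in AngII+HS and 512 CPM in Control, and was detected in 23.8% and 89.7% of cells. Of 10 immediate early genes, 5 were lower and none was higher (median -1.01), but with the monocytes that also met another gate left out 1 was lower and the median was 0.015. Fos was at 999 and 2369 CPM, 1 Control cell held 42.0% of its Control UMIs, and its log2 ratio turned to 0.74 without those cells. Egr1 was at 275 and 1188 CPM. In Control monocytes, the cell with the most UMIs of a gene held 42.9% of those of Acta2, 47.9% of Dmd, 51.5% of Atf3 and 47.5% of Egr1, and in AngII+HS monocytes 1 cell held 51.0% of the Acta2 UMIs. Control T cells held 3579 CPM of Acta2 and 1126 CPM of Dmd, more than Control monocytes. With the monocytes that also met a fibroblast, smooth muscle or T cell gate left out, the log2 ratios were 0.26 for Dmd, 0.084 for Acta2, -0.017 for Egr1, -1.03 for Atf3 and -2.05 for Gpr141.

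**Figure D5:**
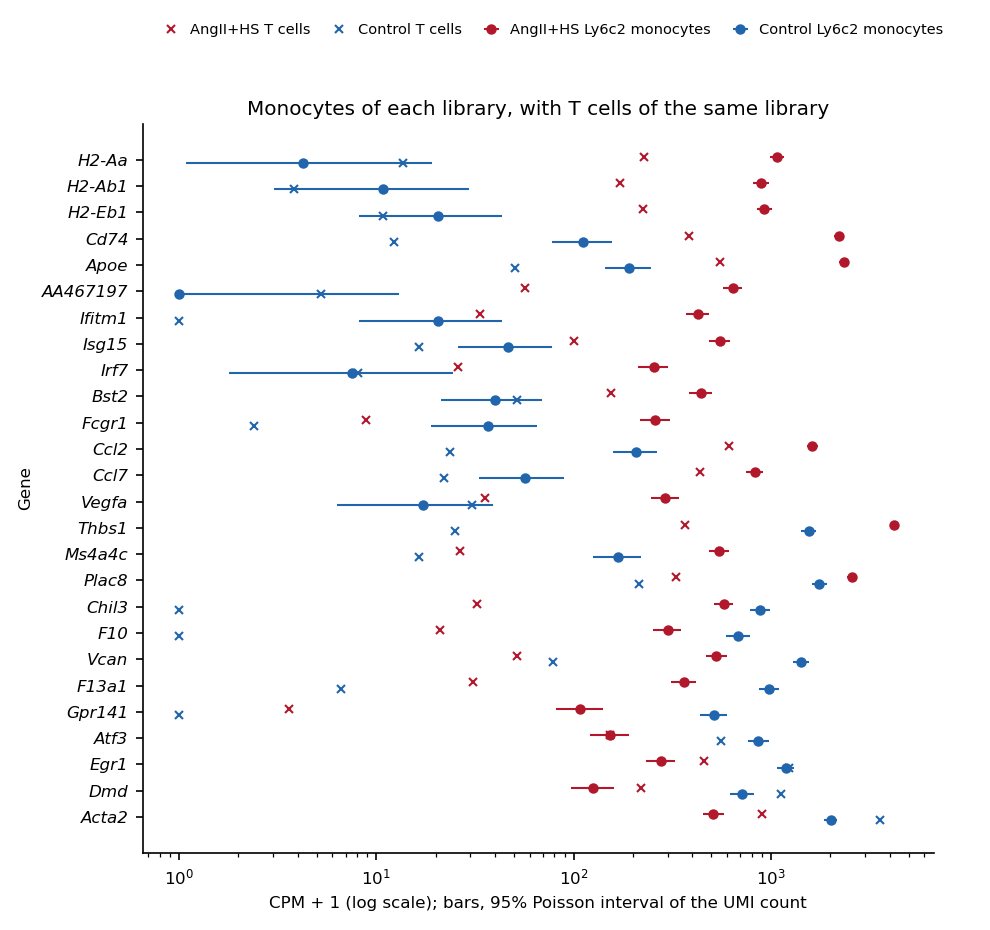
Level (x axis) of 26 genes (y axis) in Ly6c2 monocytes (points with 95% Poisson intervals of the UMI count) and T cells (crosses) of the AngII+HS (red) and Control (blue) libraries, as CPM + 1 on a log scale. MHC class II and interferon-stimulated genes lie to the right in AngII+HS monocytes, and Acta2 and Dmd are to the right in Control monocytes and in Control T cells.

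Against type 2 dendritic cells, 96 AngII+HS cells with at least 2 Cd209a UMIs and at least 5 UMIs of H2-Ab1 and H2-Aa, 3684 genes were compared. Monocytes were higher in 402 (10.9%) and lower in 272 (7.38%). Ratios were ranked among genes with at least 200 UMIs and found in at least 10% of either population. Chil3, Slpi, Thbs1, C5ar1 and Vcan were among the highest of these ratios. C5ar1, the receptor for complement C5a, was at 373 CPM in monocytes and 28.7 CPM in dendritic cells (3.66, 2.98 to 4.51). The lowest among the genes ranked were those of Mgl2, Ccl17, Tbc1d4, Stat4, H2-Eb1 and Ckb. Mgl2, the lectin CD301b, was at 3.90 CPM (2 UMIs) and 620 CPM, and H2-Eb1 at 927 and 8119 CPM (-3.13, -3.27 to -2.99). Higher MHC class II in the dendritic cells follows from their gate and is no finding.

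Against neutrophils, 1003 AngII+HS cells with at least 50 UMIs of S100a8 and S100a9, at least 3 of Retnlg and a median of 1462 UMIs, 5801 genes were compared. Monocytes were higher in 1273 (21.9%) and lower in 962 (16.6%). Ms4a4c, Ms4a6b, Ms4a6c, Ctss and Plac8 were among the highest ratios of the genes ranked in the same way. Ms4a4c was at 546 CPM in monocytes and 3.71 CPM in neutrophils, and Ctss, cathepsin S, at 2070 and 108 CPM (4.26, 4.06 to 4.48). Cstdc4, a stefin-like protease inhibitor gene, was at 0 UMIs in monocytes and 843 CPM in neutrophils, at least 144-fold lower, and Mirt2 was at least 33.2-fold lower. G0s2, an inhibitor of triglyceride lipase, was at 21.5 and 3803 CPM. Genes of near-identical copies, such as Cstdc4 and Stfa2l1, can share reads within their family.

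All of these comparisons share the same 105 monocytes, so their ratios are given side by side and are not independent of each other.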

How the data were processed

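Cell Ranger made the UMI count matrices that the authors deposited, raw and before the study's own cell filter, since cells below its minimums were still present. The matrix header names version 8.0.1 and the study methods an earlier release, and the genome is given as GRCm39 in the methods and mm10 in the labels. Columns were whole-number counts per gene and barcode, and 26 symbols with several rows were summed. Cells were filtered and gated as described above, 18 gate genes were left out of every comparison, and UMIs were summed per population and library (Python 3.11.15, NumPy 2.4.6, pandas 2.3.3, SciPy 1.17.1). With 1 library per condition no test was run. Log2 ratios of CPM had 0.5 UMIs added to each sum, and their 95% intervals are exact conditional binomial, those of levels exact Poisson and those of shares Clopper-Pearson, all for counting error only. Calls were 2-fold among genes with at least 50 UMIs. Named genes were taken from the gate, the 12 highest and 12 lowest ratios to C1q macrophages (6 for the comparisons with Control, dendritic cells and neutrophils), the most abundant and extreme members of each list, defining markers of other cell types, and the 10 most abundant genes. Ratios were ranked among genes with at least 200 UMIs and found in at least 10% of either population. A few further list members were named after their values were seen. The members and lists were chosen with earlier results of these data known. Doublets were scored with Scrublet (Scanpy 1.11.5) for an alternative only, and TMM factors came from edgeR 4.0.16 in R 4.3.3. Some genes, among them 1 with an upper limit in the gate, are not reported here. Scripts were tested on simulated data.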

Additional observations from a re-analysis of the deposited data

Results flagged for a closer look

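H2-Eb1, the beta chain of the MHC class II molecule I-E, had ratios of AngII+HS over Control with opposite signs in monocytes and C1q macrophages, of which the one in C1q macrophages was short of 2-fold. In Ly6c2 monocytes its log2 ratio of AngII+HS over Control was 5.45 (95% counting interval 4.43 to 7.02), from 927 CPM in AngII+HS and 19.6 CPM in Control. In C1q macrophages it was -0.33 (-0.43 to -0.24), from 3213 CPM in AngII+HS and 4049 CPM in Control, beside ratios of -0.039 for H2-Aa, 0.30 for H2-Ab1 and 0.088 for Cd74. With 1 library per condition the difference between these ratios was not tested.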

How the results depend on the processing

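List medians against C1q macrophages and against Control were set beside their values under each alternative. Of these values, 707 were counted as close to the reported one, 25 as moved and 7 as reversed, some of them over 1 or 2 genes. The 7 do not hold every change of sign, because small medians also changed sign. Against C1q macrophages, examples are smooth muscle genes (reported 0.039, then -0.33 and -1.17) and angiotensin genes (reported 0.032, then -0.69 and -0.44). Against C1q macrophages, with the highest Scrublet scores removed (9.03% of Control and 19.6% of AngII+HS cells), the medians were -1.35 for erythroid, -1.28 for fibroblast, -0.33 for smooth muscle, 0.87 for Schwann cell (reported -1.02), -1.80 for efferocytosis and 1.68 for arginine metabolism genes, the log2 ratio of Ccl22 turned to -0.34, and against Control Acta2 turned to 0.078, Fos to 0.75 and the smooth muscle median to 0.47. With free RNA subtracted they were -6.11 for erythroid, 1.05 for Schwann cell, -1.83 for efferocytosis, 1.60 for glycolysis and -0.69 for angiotensin genes, 996 genes were higher, and Timp1 turned to 4.05. Against Control, Dmd turned to 0.46, and the medians were 6.10 for fibroblast, -6.14 for smooth muscle and 0.52 for angiotensin genes. TMM scaling gave -0.11 for arginine metabolism and 151 lower genes against Control. Equal weight per cell gave -3.15 and no C1q UMI gave -3.19 for erythroid genes. Thinning gave 551 lower genes, 0.62 for Schwann cell, -0.25 for cell cycle and -0.44 for angiotensin genes, and 76 higher and 39 lower genes against Control. At a minimum of 20 UMIs, 997 were higher and 1748 lower against C1q macrophages, and 521 and 579 against Control. With no minimum the counts were 6399 and 1922, and 2042 and 3144. Calls with an interval clear of 0 left 633 lower genes. Leaving out monocytes in other gates was an alternative chosen after seeing the data, like the interval rule. Against C1q macrophages, of which it could leave out none, it gave -3.13 for fibroblast and -1.17 for smooth muscle genes. It also turned Ccl22 to -0.49. Against Control it turned Dmd to 0.26, Acta2 to 0.084, Fos to 0.74, the median of smooth muscle genes to 0.46 and that of immediate early genes to 0.0146. The coagulation median against Control turned to 0.15 at a minimum of 20 UMIs. The alternatives for list medians against Control were also added after seeing the data, and others that moved were 0.81 for glycolysis and -0.86 for smooth muscle genes after thinning and -0.51 for angiotensin genes with no minimum. The neutrophil median of -1.63, over 3 genes, was -1.65 without mitochondrial genes in the scaling, -1.96 at 3 Ly6c2 UMIs, -1.71 with no C1q UMI and -0.87 over 2 genes with monocytes in other gates left out. Of 111 ratios of single genes, 228 alternative values moved and 9, those given above, turned, and Vcan ran from 2.92 at 3 Ly6c2 UMIs to 8.32 with free RNA subtracted. The AngII+HS share was 0.342% at 3 Ly6c2 UMIs, 0.676% at 1, 0.301% with no C1q UMI and 0.106% after thinning, and the Control share was 0.0189% after thinning. A lower minimum of UMIs changes how many genes are compared, and the causes of the other shifts were not tested. No paired analysis was possible because each condition has 1 library. Control monocytes are few, so a count of 0 there allows up to 9.79 CPM.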

Other observations

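Small amounts of transcripts tied to other myeloid cells were found in the AngII+HS monocytes. Cd177, a surface antigen of neutrophils and of some monocytes, was detected in 14 of 105 cells, with at most 2 UMIs in any cell, at 31.2 CPM against 0.709 CPM in C1q macrophages. Mmp8, neutrophil collagenase, was at 219 CPM in Control monocytes and at 70.3 CPM in AngII+HS monocytes, against 3.90 CPM in C1q macrophages. Prtn3, proteinase 3, was at 23.4 CPM in AngII+HS and 104 CPM in Control monocytes, while Mpo and Elane were at 0 UMIs in AngII+HS monocytes. Ccr7 and Fscn1, known from migratory dendritic cells, were at 50.7 and 54.6 CPM, but each was detected in 5 of 105 cells, and a single cell held 57.7% of the Ccr7 and 82.1% of the Fscn1 UMIs.

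Haemoglobin transcripts were lower in monocytes than in most other populations of the AngII+HS library. The 4 erythroid genes summed to 25.4 CPM in monocytes, 563 CPM in C1q macrophages, 805 CPM in T cells and 3691 CPM in neutrophils, and to 16.9 CPM in type 2 dendritic cells.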
